A study of Drosophila melanogaster with 3 samples.

Results

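The cytoplasmic and nuclear transducers of Wingless signalling were examined in a chromatin map of the tagged protein Coop from Drosophila melanogaster. The 10 genes were named for their function in the pathway, by a rule that uses no measured value but with earlier results of these data known, out of 13968 protein-coding genes: dsh, Axn, Apc, Apc2, sgg, CkIalpha, arm, pan, lgs and pygo. For each gene, summits were collected within 500 bp of any of its annotated transcription start sites (TSS), in the gene body and in the 5 kb on either side. All 10 were found in the annotation.

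Chromatin came from whole prepupae aged 24 h, males and females together, of 1 transgenic line that expresses Coop (CG1621) with eGFP at its C terminus. The 3 biological replicates formed 1 group that shared this transgene, and no other genotype, treatment or stage was compared. Each library's free text calls it an input control, whereas its assay title, antibody entry and deposited notes describe transcription factor ChIP-seq with a separate control. All values below take the second reading. Whole animals mix all tissues, so a weak summit can come from weak occupancy everywhere or from few cells, and these cannot be told apart.

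Wingless is a secreted Wnt protein that patterns fly embryos and imaginal discs. Without it, a destruction complex built on the scaffolds Axn, Apc and Apc2 lets the kinases CkIalpha and Sgg (the fly GSK3) phosphorylate Armadillo, the fly beta-catenin, which is then degraded. With it, Dishevelled (the product of dsh) is recruited to the receptors, the complex is inhibited, and Armadillo enters the nucleus. There it joins the TCF factor Pangolin (the product of pan) with the adaptor Legless (lgs) and the PHD-finger protein Pygopus (pygo). Coop is a corepressor of Wingless targets that interacts with Pangolin.

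The thresholded list held 6626 peaks, the regions of highest signal among 30000 from the pooled replicates. Each replicate also had a list of 30000 regions, and its 6626 regions of highest signal were compared with the thresholded list. Signal is the authors' own peak score. Its scale differed between lists, so levels across lists are given as ranks (1 is the strongest) or percentiles within a list. A thresholded summit counted as found in a replicate when 1 of that replicate's 6626 strongest summits lay within 100 bp.

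A promoter summit, meaning one within 500 bp of a TSS, was present in the thresholded list at 3 of the 10 transducer genes, sgg, CkIalpha and pygo. The same rule called 21.1% of all protein-coding genes. For all 3 genes a promoter summit was found in all 3 replicates, which held for 10.7% of all genes. With the gene body and the 5 kb flanks included, 8 of 10 had a thresholded summit, against 51.2% of all genes, and Apc2 and lgs had none. With flanks, the share was 45.7% for genes with 1 TSS and 82.8% for genes with 4 or 5 TSS. The shares of all genes were not matched to the transducers for the number of TSS. Of the 17 thresholded summits collected, 5 lay at a promoter of the transducer gene itself and 4 lay inside sgg or arm away from their promoters. The other 8 lay outside the transducer genes, and all 8 were nearer to a TSS of a neighbouring gene.

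The sequences at 7 of these 17 summits are printed so that promoter and intronic regions can be compared. They were read from the RefSeq genome of release 6 (dm6), 5′ to 3′ on the strand of the gene, over 201 bp centred on the summit, or the part of it upstream of the TSS. Capitals mark matches, on either strand, to any of 7 motifs searched: the Pan HMG core CTTTGAT, the Pan helper core GCCGCC, the DRE TATCGATA, Motif 1 GGTCACACT, the GAGA repeat GAGAGAG, the E-box CACGTG and the TATA box TATAAA. The first 3 are the strongest summits of sgg, at chrX:2646343-2646543, chrX:2647473-2647673 and chrX:2648057-2648257, all on the plus strand and all intronic in longer transcripts. The next 2 are the promoter summits of CkIalpha, at chrX:12654565-12654699 (plus strand), and of pygo, at chr3R:31580700-31580864 (minus strand). The arm intron summit is at chrX:1897514-1897714 (minus strand). The last is the strong summit upstream of dsh, which lies in an intron of CG1737, at chrX:11351434-11351634 (plus strand).
sgg promoter summit: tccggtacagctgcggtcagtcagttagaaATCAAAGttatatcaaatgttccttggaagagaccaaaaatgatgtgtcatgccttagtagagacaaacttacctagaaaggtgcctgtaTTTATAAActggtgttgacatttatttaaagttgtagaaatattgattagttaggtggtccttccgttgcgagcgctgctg
sgg second summit: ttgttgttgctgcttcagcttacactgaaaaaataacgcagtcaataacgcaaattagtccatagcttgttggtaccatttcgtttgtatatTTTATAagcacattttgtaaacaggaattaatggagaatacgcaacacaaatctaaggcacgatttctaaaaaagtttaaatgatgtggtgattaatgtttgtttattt
sgg summit downstream of both: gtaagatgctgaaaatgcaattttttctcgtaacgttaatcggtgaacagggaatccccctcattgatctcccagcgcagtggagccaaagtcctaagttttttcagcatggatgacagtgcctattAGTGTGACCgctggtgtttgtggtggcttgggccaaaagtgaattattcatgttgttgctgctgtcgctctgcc
CkIalpha promoter summit: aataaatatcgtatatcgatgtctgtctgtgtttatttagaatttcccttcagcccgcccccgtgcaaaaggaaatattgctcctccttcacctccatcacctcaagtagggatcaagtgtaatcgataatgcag
pygo promoter summit: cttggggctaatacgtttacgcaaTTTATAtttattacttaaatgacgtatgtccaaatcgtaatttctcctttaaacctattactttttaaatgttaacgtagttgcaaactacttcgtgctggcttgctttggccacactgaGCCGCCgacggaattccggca
arm intron summit: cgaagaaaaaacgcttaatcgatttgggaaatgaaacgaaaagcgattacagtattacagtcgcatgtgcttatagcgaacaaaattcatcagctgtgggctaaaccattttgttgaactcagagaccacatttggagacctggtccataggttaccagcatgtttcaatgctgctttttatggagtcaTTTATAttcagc
dsh upstream summit: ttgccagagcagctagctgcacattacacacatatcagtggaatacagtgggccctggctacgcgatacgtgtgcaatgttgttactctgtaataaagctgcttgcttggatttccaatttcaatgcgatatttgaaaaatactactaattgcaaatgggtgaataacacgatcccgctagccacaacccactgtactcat

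Of these 7 stretches, the strongest sgg summit held a Pan HMG core, centred 67 bp upstream of the summit, and overlapping TATA box letters. The third sgg stretch held Motif 1, the site of the promoter factor M1BP, 31 bp from the summit. The pygo stretch held the helper core and a TATA box. The second sgg stretch and the arm stretch held a TATA box only. The CkIalpha and dsh stretches held none of the 7 motifs. A match is a match of letters only and was not tested as a site.

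sgg (FBgn0003371, X, 2633952 to 2679553, plus strand) is a gene of 45.6 kb with 11 annotated TSS, and it held 6 of the 17 thresholded summits. Its strongest summit, at 2646443, lay 194 bp upstream of the ninth TSS, with a signal of 1745 and rank 111 of 6626. In replicate 1 this summit had a signal of 413 and rank 148, in replicate 2 a signal of 770 and rank 102, and in replicate 3 a signal of 499 and rank 130. All 3 replicates thus placed it among their strongest regions, at a mean percentile of 99.6 ± 0.0773 (SD, n = 3) of the 30000 regions, and the summit position varied by 5 bp between them.

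A second sgg summit, at 2647573, lay 936 bp inside the transcript from that TSS, with a signal of 709 and rank 783. Its ranks were 1324, 514 and 905 in replicates 1, 2 and 3. The third summit, at 2648157, lay 1520 bp downstream of the same TSS, with a signal of 268 and rank 3688, and with replicate ranks of 6084, 3408 and 2633. Both were found in all 3 replicates, and the order of the 3 summits by signal was the same in each replicate. Relative to the strongest summit, the second had 34.7%, 50.7% and 42.8% of its signal in the 3 replicates (42.7% ± 8.04, SD, n = 3), and the third had 17.4% ± 4.30. Together they formed a cluster within 2 kb around 1 internal TSS of the gene.

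**Figure D1:**
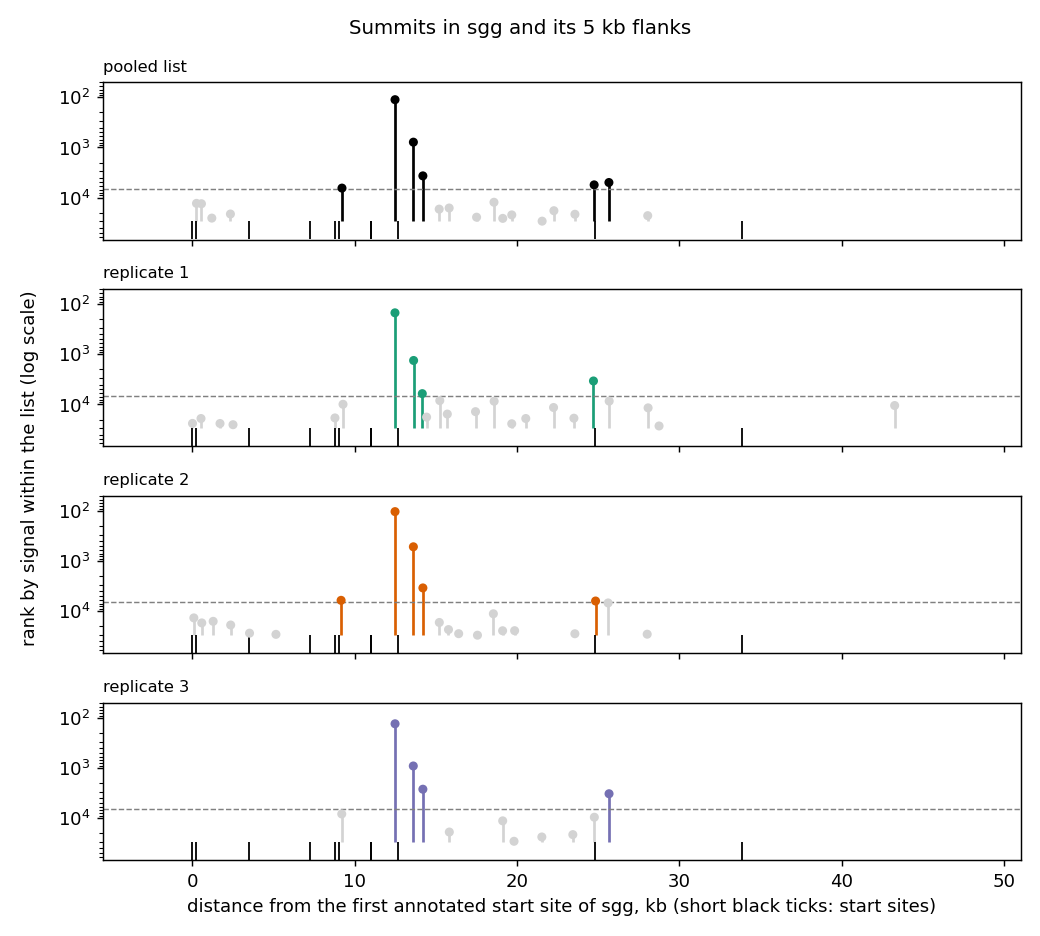
Rank by signal (log scale, strongest at the top) of each summit in sgg and its 5 kb flanks, against distance from the first annotated TSS in kb, for the pooled list and each replicate. Black ticks are the 11 TSS, the dashed line is rank 6626, and grey summits rank below it. The same 3 summits near the ninth TSS are the strongest in the pooled list and in replicates 2 and 3. In replicate 1 a summit near the tenth TSS outranks the third one.

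The other 3 sgg summits were weak, and none of them was found in all 3 replicates. The one at 2658702, 64 bp upstream of the tenth TSS, had a signal of 197 and rank 5580. Its replicate ranks were 3398, 6219 and 9550, so it was found in replicates 1 and 2 and ranked too low in replicate 3. The one at 2659611, which lies 845 bp downstream of that TSS in sequence that is coding or intronic depending on the transcript, had a signal of 215 and rank 5004, with replicate ranks of 8576, 6797 and 3243. It was found in replicate 3 only. The one at 2643176, 159 bp downstream of the sixth TSS, had a signal of 174 and rank 6472, close to the end of the thresholded list. It ranked 9923, 6029 and 8219 and was found in replicate 2 only, yet its signal relative to the strongest sgg summit was steady, at 9.38%, 10.5% and 9.78% (9.87% ± 0.547, SD, n = 3). The same ratio was 13.1% ± 6.46 for the summit at 2658702 and 13.2% ± 5.44 for that at 2659611.

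Of the 11 TSS of sgg, 4 had a thresholded summit within 500 bp. The first TSS was not among them: its strongest pooled summit ranked 13062, and in replicate 3 it had no region. As background for so long a gene, 41.2% of the 468 protein-coding genes of 40 kb or more had a promoter summit, as did 7 of the 9 genes with 10 or more TSS.

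CkIalpha (FBgn0015024, X, 12653626 to 12657834, plus strand) encodes the kinase that primes Armadillo for Sgg, and has 5 annotated TSS within 4.21 kb. Its thresholded summit, at 12654665, lay 35 bp upstream of the last of these TSS, in an intron of the longer transcripts, with a signal of 496 and rank 1448. The signal was 135 in replicate 1 (rank 1516), 171 in replicate 2 (rank 2082) and 199.7 in replicate 3 (rank 1017). These ranks give a mean percentile of 94.9 ± 1.78 (SD, n = 3), below that of sgg in each replicate, and the summit moved by 60 bp between replicates.

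A weaker CkIalpha summit lay 45 bp upstream of the second TSS, at 12653755 in the pooled list, with a signal of 128 and rank 9230, below the threshold. It was among the strongest 6626 regions in replicate 1 alone (rank 3340), against ranks of 12775 and 14533 in replicates 2 and 3. Its signal was 63.6%, 24.1% and 14.9% of that of the downstream summit in the 3 replicates, and the downstream summit stayed the stronger. The replicate 3 values are those of a summit at 12653877, 77 bp downstream of the second TSS. That summit lies beyond the 100 bp matching distance from the pooled one, so the 3 percentages may not compare the same site. Promoter summits were common among genes with as many start sites, at 59.5% of the 348 genes with 4 or 5 TSS. arm and pan are also in that class and had none. A further summit beyond the 3′ end of CkIalpha, at 12660326 (signal 190, rank 5819), lay in an intron of Tis11, which encodes an mRNA decay factor, 208 bp from the TSS of that gene.

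pygo (FBgn0043900, 3R, 31575835 to 31580699, minus strand) was the only nuclear transducer gene with a thresholded promoter summit. The summit, at 31580764, lay 65 bp upstream of the single TSS, between pygo and the divergent gene rod, a kinetochore component, and within 500 bp of a TSS of both. Its signal was 258 and its rank 3931. In replicate 1 it had a signal of 109 and rank 2254, in replicate 2 a signal of 98.2 and rank 4632, and in replicate 3 a signal of 59.1 and rank 6452. The last value is close to the end of the 6626 regions compared, and the mean percentile was 85.2 ± 7.02 (SD, n = 3), the lowest and most variable of the 3 genes. Genes with 1 TSS had a promoter summit in 15.3% of 10269 cases, and of the 4 transducer genes with 1 TSS only pygo did.

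**Figure D2:**
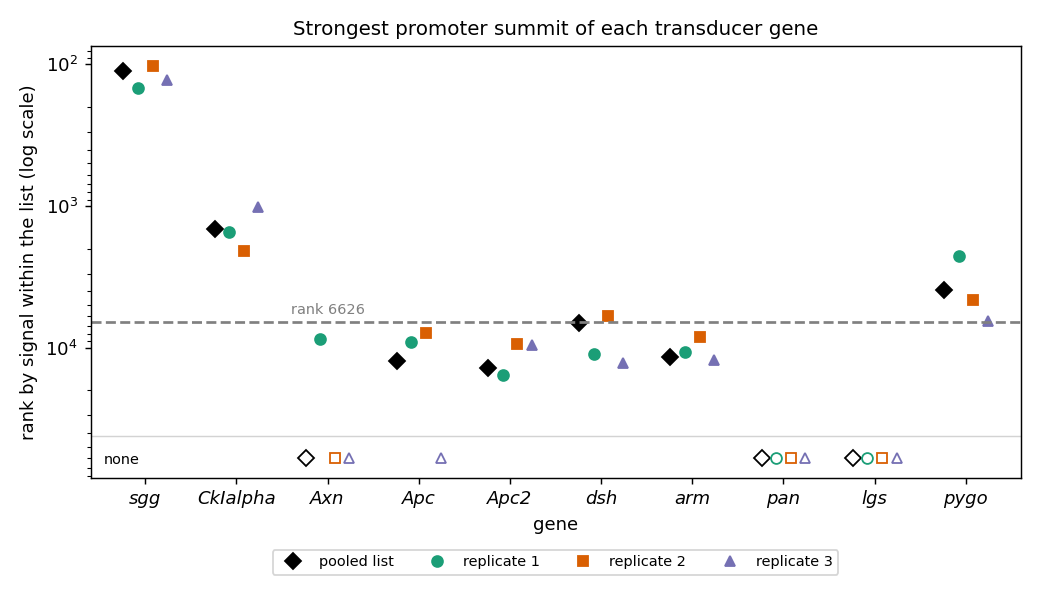
Rank by signal (log scale, strongest at the top) of the strongest summit within 500 bp of any TSS of each gene, in the pooled list (diamonds) and in replicates 1 to 3 (circles, squares, triangles). The dashed line is rank 6626 and open symbols mark lists with no such summit. sgg, CkIalpha and pygo lie above the line in all 4 lists, dsh crosses it in replicate 2, and pan and lgs have none.

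The remaining 7 genes had no thresholded promoter summit, and they differed in how far below the threshold they lay. dsh (FBgn0000499, X, 11355881 to 11358724, plus strand) came closest. Its promoter summit, 100 bp downstream of the TSS, ranked 6646 in the pooled list with a signal of 170.3, where the weakest thresholded peak had 170.6. Across replicates it ranked 11142, 6010 and 12895, so it was among the strongest 6626 regions in replicate 2 only.

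The 5 kb around dsh held stronger signal than its promoter. A summit 4347 bp upstream, at 11351534, had a signal of 1156 and rank 303, with replicate ranks of 268, 396 and 245, and was found in all 3. After the first sgg summit it was the strongest of the 17, and it lies in an intron of CG1737, 926 bp from the TSS of that gene. Downstream of dsh, the summit at 11359264 (signal 287, rank 3319, found in all 3 replicates) lay 28 bp from the TSS of Pa1. An overlapping region with its summit at 11359467 (signal 189, rank 5822) was found in none.

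Axn (FBgn0026597, 3R, 30022842 to 30035311, plus strand) encodes the scaffold of the destruction complex. Its nearest thresholded summit, at 30022046, lay 796 bp upstream of the first TSS, with a signal of 264 and rank 3777. That position is in the 5′ untranslated region of Mgat2, an N-glycan processing enzyme, 175 bp from its TSS. The summit ranked 10945, 4664 and 1978 in replicates 1, 2 and 3, and it was found in replicates 2 and 3. Within 500 bp of an Axn TSS only replicate 1 had a region, 140 bp upstream, at rank 8719. Its summit, at 30022702, was nearer to a TSS of RpS28a, at 54 bp, and also lay within 500 bp of a TSS of Mgat2.

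Apc (FBgn0015589, 3R, 28832301 to 28844748, minus strand) and Apc2 (FBgn0026598, 3R, 24163966 to 24168264, plus strand) encode the fly members of the adenomatous polyposis coli family. For Apc, 2 thresholded summits lay upstream, both in the divergent gene spg, which encodes a DOCK-family exchange factor. The one 575 bp upstream, at 28845323, was 23 bp from the spg TSS (signal 283, rank 3376). It was found in replicates 1 and 3, at ranks 1634 and 2395. Replicate 2 had no summit within 100 bp of it, but had one at 28845435 (rank 4951), 135 bp from the spg TSS. The one 2579 bp upstream, at 28847327, was in an spg intron (signal 433, rank 1775) and was found in all 3, at ranks 3635, 1632 and 2229. At the promoter of Apc the best rank was 12351 in the pooled list, 9165 in replicate 1 and 7858 in replicate 2, with none in replicate 3. Apc2 had no thresholded summit in the gene or its flanks. Its strongest promoter summit ranked 13986 in the pooled list and 15572, 9398 and 9538 in the replicates. These summits lay at 24163872 in the pooled list and at 24164359, 24163873 and 24164093 in replicates 1, 2 and 3. The ranks therefore do not all compare the same site.

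Among the thresholded summits, the one farthest from its TSS within the 500 bp limit was the sgg summit at 194 bp. The nearest outside the limit were those of Apc at 575 bp and Axn at 796 bp. By rank of the strongest promoter summit of each gene, pygo was the last inside the thresholded list, at 3931, and dsh the first outside it, at 6646.

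arm (FBgn0000117, X, 1891401 to 1900646, minus strand) encodes Armadillo itself. Its 1 thresholded summit, at 1897614, lay in an intron 1910 bp downstream of the nearest of 4 TSS, with a signal of 198 and rank 5527. The ranks were 7220, 5299 and 7076, so it was found in replicate 2 only and stood just below the compared regions in the other replicates. At its promoters the best pooled rank was 11626, and 10761, 8348 and 12290 in the replicates.

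**Figure D3:**
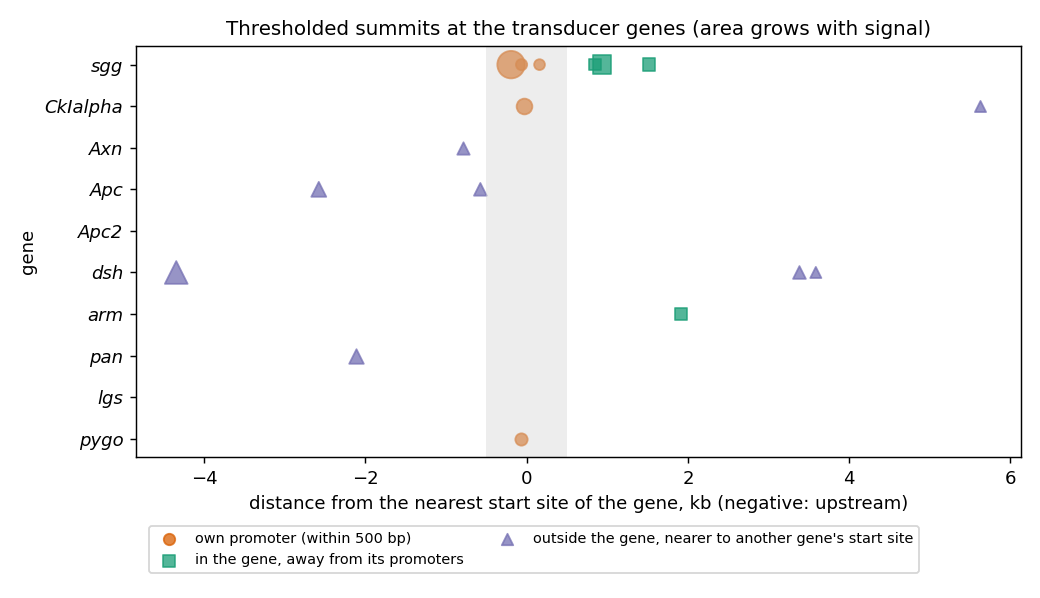
Distance in kb of each of the 17 thresholded summits from the nearest TSS of the transducer gene (negative is upstream), by gene, with marker area growing with the authors' signal. The grey band is the 500 bp promoter window. 5 summits fall in the band, at sgg, CkIalpha and pygo, 4 lie inside sgg or arm, and the 8 triangles are nearer to a TSS of another gene.

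pan (FBgn0085432, 4, 69326 to 114270, plus strand) encodes the factor that Coop is known to bind, and lgs (FBgn0039907, 4, 436957 to 443911, minus strand) encodes the adaptor between Armadillo and Pygopus. No list had a summit within 500 bp of a TSS of either gene, and lgs had no summit in any of the 5 lists, flanks included. Replicate 1 alone had a summit 521 bp upstream of the first pan TSS, at 68805, with rank 7105. The thresholded summit counted for pan, at 67205 (signal 408, rank 1954), lay 2121 bp upstream of its first TSS and 2 bp from the TSS of RpS3A, a ribosomal protein gene. It ranked 1234, 2894 and 2302 and was found in all 3 replicates. Both genes lie on chromosome 4, where few regions were listed: 8 in the thresholded list, 30 in the pooled list and 72, 50 and 35 in the replicates. A promoter summit was present at 4 of the 80 protein-coding genes of that chromosome (5%). Binding at pan and lgs and recovery of regions on chromosome 4 cannot be told apart here.

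Across single libraries, the 6626 strongest regions gave a promoter summit to 3 of 10 transducer genes in replicate 1, with 25.9% of all genes called. Replicate 2 gave 4 of 10, dsh being added, with 21.3% of all genes, and replicate 3 gave 3 of 10 with 18.1%. The mean was 3.33 ± 0.577 genes (SD, n = 3). With every region of the relaxed lists used, the counts were 7 of 10 in the pooled list (41.3% of all genes), 8 in replicate 1 (51.5%), 7 in replicate 2 (46.1%) and 6 in replicate 3 (36.5%). At the added genes the best promoter ranks ran from 6010 to 15572. The position of the strongest promoter summit differed between replicates by 128 bp for dsh, 486 bp for Apc2 and 578 bp for arm. The Apc2 range comes from separate summits being strongest in different replicates. A summit at 24164359, 24164361 and 24164370 was present in replicates 1, 2 and 3. For arm, the strongest lay at 1899126 in replicate 3, against 1899609 and 1899704 in replicates 1 and 2.

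**Figure D4:**
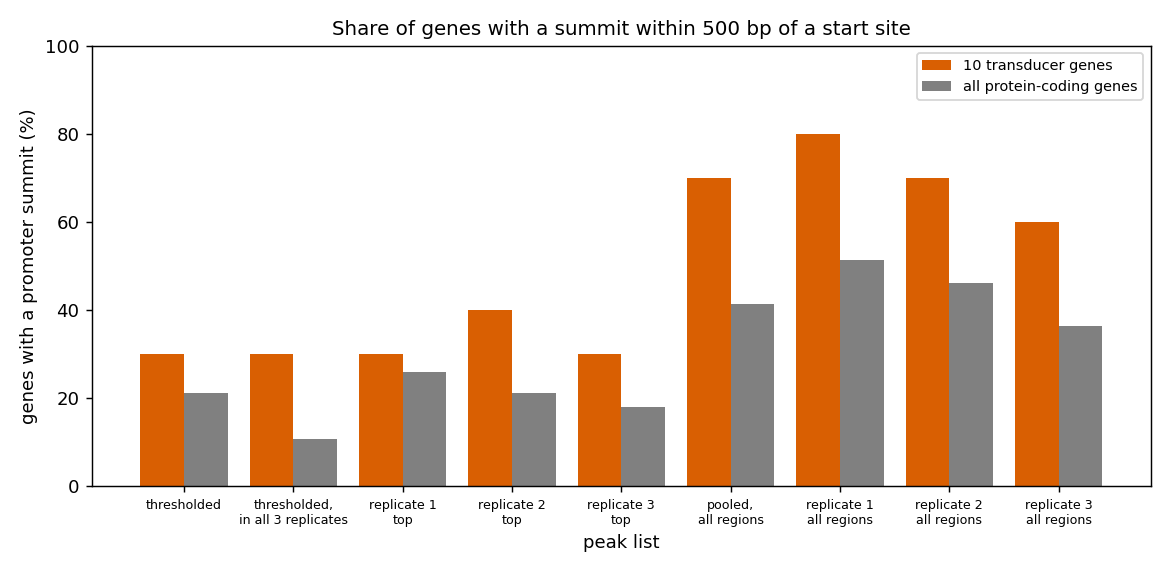
Percentage of the 10 transducer genes (orange) and of all 13968 protein-coding genes (grey) with a summit within 500 bp of a TSS, in the thresholded list, among its summits found in all 3 replicates, in the 6626 strongest regions of each replicate (top) and in all regions of the relaxed lists. The transducer share is 30% in the thresholded list against 21.1%, and 60% to 80% in the relaxed lists against 36.5% to 51.5%. Here 1 gene is 10 percentage points. In the thresholded list 15.3% of genes with 1 TSS and 59.5% of genes with 4 or 5 TSS were called. The shares of all genes are not matched to the transducers for the number of TSS.

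In the 201 bp windows around all 6626 thresholded summits, the Pan HMG core was present in 2.90%, against 3.50% of flanking windows centred 500 bp further along the chromosome. At the transducer genes it was present in 2 of 17 windows, both in sgg: the strongest summit above, and the weak summit at 2643176, 90 bp from it. The Pan helper core was present in 8.71% of all windows and 10.9% of flanks, and in 6 of the 17. Its letters are all G or C. These 6 windows had 42.3% to 58.2% G and C, against a median of 39.8% over all thresholded windows. The count was not matched for this content, and a link between them was not tested. The DRE, bound by Dref, was present in 2.20% of all windows and 0.664% of flanks and in 0 of the 17. Motif 1 was present in 1.69% and 0.332%, and in 2 of the 17, the third sgg summit and the pygo promoter, where it lies 90 bp from the summit inside the transcript and outside the printed stretch. The GAGA repeat (6.93% and 4.07%) and the E-box (2.25% and 2.29%) were in none of the 17, and the TATA box (25.4% and 22.5%) was in 5. With 17 windows, of which several share a gene, these counts are a description.

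Among 38 other genes of the pathway, 16 had a thresholded promoter summit (42.1%, against 21.1% of all protein-coding genes). For 8 of the 38 a promoter summit was found in all 3 replicates, against 10.7% of all genes. These shares were not matched for the number of TSS. Of 7 ligand genes only wg itself had a thresholded promoter summit (signal 299, found in all 3). Of 5 receptor genes, fz, fz2 and fz3 did, with signals of 188, 237 and 426, and fz3 alone was found in all 3. Both genes for Wnt secretion did, the acyltransferase gene por (234, found in 2 replicates) and the transport receptor gene wls (340, found in all 3). Among 7 further kinase and phosphatase genes, gish, a casein kinase I gamma gene, reached 1787, close to sgg. The phosphatase 2A genes mts, wdb and tws had 347, 387 and 198. The summits of gish and mts were found in all 3 replicates, that of tws in 2 and that of wdb in 1. None of 4 degradation genes did. Of 8 coactivator genes, Chi (183) and ebd1 (197) did, neither found in all 3 replicates. Of 5 repressor genes, Coop (3745), gro (1179), CtBP (906) and nkd (182) did, and the first 3 were found in all 3 replicates. The summits of por, wls, mts, Chi and CtBP also lay within 500 bp of a TSS of CG6179, Adck5, Rack1, MAN1 and CG8031, respectively. The line carries an added Coop gene, so the Coop value cannot be told apart from the transgene. No difference between these groups and the transducers was tested.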

How the data were processed

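The authors derived each deposited list from ChIP-seq of the tagged protein in 3 biological replicates, with 1 control alignment shared by all libraries, on dm6, per the deposited notes. The caller, its version and the threshold on reproducibility are not given in the sources used here. Each deposited signal value is the authors' score per region, never negative, with a scale that differed between lists. Read depth is unknown, so no counting error is given. The −log10 values were not used.

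A summit is the region start plus the summit offset plus 1, so positions count from 1. Genes and 19630 TSS came from Ensembl release 115 (BDGP 6.54). Every region ended within its chromosome arm of the release 6 genome. Tables were made with Python 3.11.15, pandas 2.3.3 and numpy 2.4.6, and the calling rules were tested on simulated data. The calls are counts beside the share of all 13968 protein-coding genes, with no test, because there was 1 group. The text names all 10 transducer genes, the other pathway genes with a thresholded promoter summit, genes that share or lie nearest to a summit, and the 7 motifs. The genes, lists and rules were chosen with earlier results of these data known. The separate replicates are labelled biological, and nothing in the labels pairs them with other samples. Alternatives were the promoter window, the flank, the number of peaks or TSS, the matching distance and leaving out each replicate.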

Additional observations from a re-analysis of the deposited data

How the results depend on the processing

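The count of 3 transducer genes with a thresholded promoter summit was 5 with a 1000 bp window, which adds Axn and Apc and calls 24.9% of all genes. It was 1 (pygo) with 1 TSS per gene, which calls 18.6% of all genes, because sgg and CkIalpha have their summits at internal TSS. The count of 8 with the flanks included was 3 (sgg, CkIalpha and arm) with the gene body only, against 2234 of all 13968 genes. The 3 genes found in all 3 replicates became 1 with 50 bp between summits, where sgg remained and 7.88% of all genes were called. The mean of 3.33 genes per replicate was 7 with all regions of each replicate list, and 3 to 3.5 without each replicate in turn. In 22 of 27 alternatives a count changed by no more than 1.5 times or a mean percentile by less than 1 SD. Among these, the thresholded peaks above the median signal left 2 genes (sgg and CkIalpha), against 11.9% of all genes. Leaving out 1 of 3 replicates cannot move a mean percentile by 1 SD, so those alternatives could not count as changed. Taking the summit nearest to the thresholded one gave the same mean percentiles for sgg, CkIalpha and pygo. Without each replicate in turn, the mean percentile ran from 99.5 to 99.6 for sgg, from 94.0 to 95.8 for CkIalpha and from 81.5 to 88.5 for pygo. No paired analysis was possible because there is 1 group. Without read counts, a gene with no region cannot be called free of binding.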

Other observations

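A few strong regions of 1 or 2 replicates near the transducer genes had no counterpart within 500 bp in the pooled list of 30000 regions. Beyond the 3′ end of Apc, at the promoter of WASp, an actin regulator, replicate 1 had a summit at 28832089 with rank 1199 and replicate 2 had one at 28832084 with rank 2872. Upstream of Apc2, 74 bp from the TSS of TBC1d7, replicate 2 had a summit at 24161653 with a signal of 270 and rank 1016. Replicate 1 had a lower-ranked summit there, at 24161705, with rank 7507. Of the 6626 strongest regions, 497 in replicate 1 (7.50%), 243 in replicate 2 (3.67%) and 138 in replicate 3 (2.08%) had no pooled summit within 500 bp. These regions entered none of the thresholded counts, and the reason for their absence was not tested.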
